A study of Mus musculus with 12 samples.

Results

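Enteroendocrine cells are the hormone-secreting cells of the gut epithelium. The 9 genes described here are 7 transcription factors of their differentiation (Neurog3, Neurod1, Pax4, Pax6, Nkx2-2, Isl1 and Insm1) and 2 granins (Chga and Chgb), which are proteins of the hormone-storing granule. They were chosen by name from 19012 gene symbols, with earlier results of these data known, and all 9 were found. For a symbol with several transcripts the one with the longest exons was used. Polyadenylated RNA was sequenced from mouse small intestine in 12 libraries. There were 3 libraries of organoids (duodenum, jejunum and ileum, 1 each), 3 of villi (1 per origin) and 6 of crypts (2 per origin). Organoids were epithelial cultures grown from isolated crypts and sampled after 12 weeks in culture, whereas villi and crypts were freshly isolated. Organoids grown this way lack mesenchyme. No genotype, strain, age or treatment is named in the sources used here for any group. The labels do not say whether libraries of a group come from separate animals, so p-values reflect the spread among these libraries alone, which may be technical.

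Secretory progenitors in the crypt that escape Notch signalling can switch on Neurog3 briefly, and this basic helix-loop-helix factor is required for all enteroendocrine cells of the mouse intestine. Neurod1, another helix-loop-helix factor, and Insm1, a zinc finger protein, follow it, and Pax4, Pax6, Nkx2-2 and Isl1 are homeobox or paired-box factors that shape which hormones a cell makes. Maturing cells move onto the villus and store their hormones with chromogranin A (Chga) and chromogranin B (Chgb), 2 acidic proteins that are widely used as markers of mature endocrine cells.

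The sequences just upstream of the annotated starts of Neurog3, the factor with the largest changes, and of the granins, which differed from each other between tissues, are shown for orientation. They are RefSeq promoter sequences of build GRCm38.p6, 250 bases ending at the base before the start, 5′ to 3′ on the gene's own strand, at chr10:62132840-62133089 (Neurog3, plus strand), chr12:102554691-102554940 (Chga, plus strand) and chr2:132781392-132781641 (Chgb, plus strand). Capitals mark CANNTG, the core letters of the E-box that helix-loop-helix factors bind, in Neurog3, and TGACGT, the core letters of the cyclic AMP response element, on either strand in the granins, where overlapping matches run together.
Neurog3: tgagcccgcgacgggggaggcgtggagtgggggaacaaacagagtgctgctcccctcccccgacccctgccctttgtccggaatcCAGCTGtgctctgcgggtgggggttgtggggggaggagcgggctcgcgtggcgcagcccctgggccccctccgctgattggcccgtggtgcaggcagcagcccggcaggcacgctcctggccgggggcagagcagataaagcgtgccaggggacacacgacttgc
Chga: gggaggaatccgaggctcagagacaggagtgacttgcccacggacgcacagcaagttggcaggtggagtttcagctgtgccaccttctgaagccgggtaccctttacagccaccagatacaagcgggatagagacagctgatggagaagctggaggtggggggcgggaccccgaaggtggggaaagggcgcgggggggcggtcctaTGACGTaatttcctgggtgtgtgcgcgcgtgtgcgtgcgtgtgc
Chgb: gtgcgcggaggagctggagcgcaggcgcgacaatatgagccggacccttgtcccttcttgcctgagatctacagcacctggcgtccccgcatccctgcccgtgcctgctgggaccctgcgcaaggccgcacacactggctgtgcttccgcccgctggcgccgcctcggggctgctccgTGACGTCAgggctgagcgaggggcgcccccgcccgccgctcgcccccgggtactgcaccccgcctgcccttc

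The TGACGT core began 44 bases upstream of the start in Chga and 72 bases upstream in Chgb, where it formed the palindrome TGACGTCA. TGACGT stood in the windows of 6.47% of 32851 mouse promoters of the same length. CANNTG stood in 66.2% of them, so its single match in Neurog3 sets that promoter apart from few others. In the deposited mm9 coordinates the transcripts lie at chr10:61595837-61597510 (Neurog3), chr12:103793178-103803236 (Chga) and chr2:132607013-132620807 (Chgb), all on the plus strand, and whether starts count from 0 or 1 is not stated. Neurod1, Pax6, Nkx2-2 and Insm1 are also on chromosome 2, Pax4 is on chromosome 6 and Isl1 on chromosome 13. Of the 9 genes, 7 had a promoter entry, and Pax4 and Insm1 had none. Among the other factors, TGACGT was also present upstream of Pax6 and Isl1. A match describes these letters and is not evidence of binding.

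The libraries held between 5268480 and 18591819 reads, of which 44.3% to 75.8% lay in annotated genes. Levels are given in RPKM, which scales reads by exon length and by library size and so allows comparison between genes, and 1 read in a 2-kb transcript was worth 0.0269 to 0.0949 RPKM. Summed over 17 enterocyte markers, villi held 53157 to 108560 RPKM and crypts 1100 to 28900 RPKM. Summed over 9 stem and cycling markers, villi held 25.8 to 58.0 RPKM, organoids 733 to 897 RPKM and crypts 169 to 1277 RPKM, which fits the labels. Crypt libraries numbered 2 stood apart from those numbered 1, with all 17 enterocyte markers higher at each of the 3 origins (median log2 differences of 3.38, 3.22 and 2.98 in duodenum, jejunum and ileum). The median difference of the 9 endocrine genes between these libraries was -0.18, 0.10 and -0.05. Single genes differed more, as with Pax4 in duodenum libraries 1 and 2 (4.87 and 1.24 RPKM). Chga was lower in library 2 in the duodenum (37.7 and 17.1 RPKM) and higher in jejunum and ileum. The median differences were -1.95, -0.99 and -1.61 for 11 Paneth cell markers. They were -0.74, 0.59 and 0.62 for 17 hormone and amine synthesis genes. All 9 genes passed the filter on low values and none was at 0 in any library. Pax4, Pax6 and Isl1 passed it through organoids and crypts alone, since no villus library reached the equivalent of 10 reads at median depth. Neurog3 and Nkx2-2 reached it in 1 villus library each and Insm1 in 2, fewer than the 3 libraries required for tissue comparisons. Several factors rest on few reads, down to 3 for Pax4 in villi.

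The granins had the highest mean levels in every tissue, and the order of the factors differed between tissues. In organoids the mean level was 37.5 ± 3.63 RPKM for Chgb, 18.9 ± 3.40 for Chga and 15.6 ± 5.28 for Neurog3 (SD, n = 3), and the other 6 genes averaged 0.876 to 2.88 RPKM. In villi Chga averaged 36.4 ± 11.2 RPKM and Chgb 12.8 ± 3.96 (SD, n = 3), while Neurod1 led the factors at 1.22 ± 0.261 RPKM and the other 6 factors averaged 0.230 to 0.584 RPKM. In crypts Chga averaged 20.9 ± 9.54 RPKM, Chgb 13.1 ± 6.50 and Neurog3 5.38 ± 2.94 (SD, n = 6), and the other 6 factors averaged 0.597 to 1.53 RPKM. In crypts the ranges over all origins of Chga (11.5 to 37.7 RPKM) and Chgb (7.19 to 24.7 RPKM) overlapped. Those of Chgb and Neurog3 (2.78 to 9.51 RPKM) did so too. Within each crypt library, however, Chga exceeded Chgb and Chgb exceeded Neurog3. In organoids Chgb was apart from Chga, whose libraries (15.1 to 21.5 RPKM) overlapped those of Neurog3 (11.1 to 21.4 RPKM). In villi Chga (28.1 to 49.2 RPKM) was apart from Chgb (8.30 to 15.9 RPKM).

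**Figure D1:**
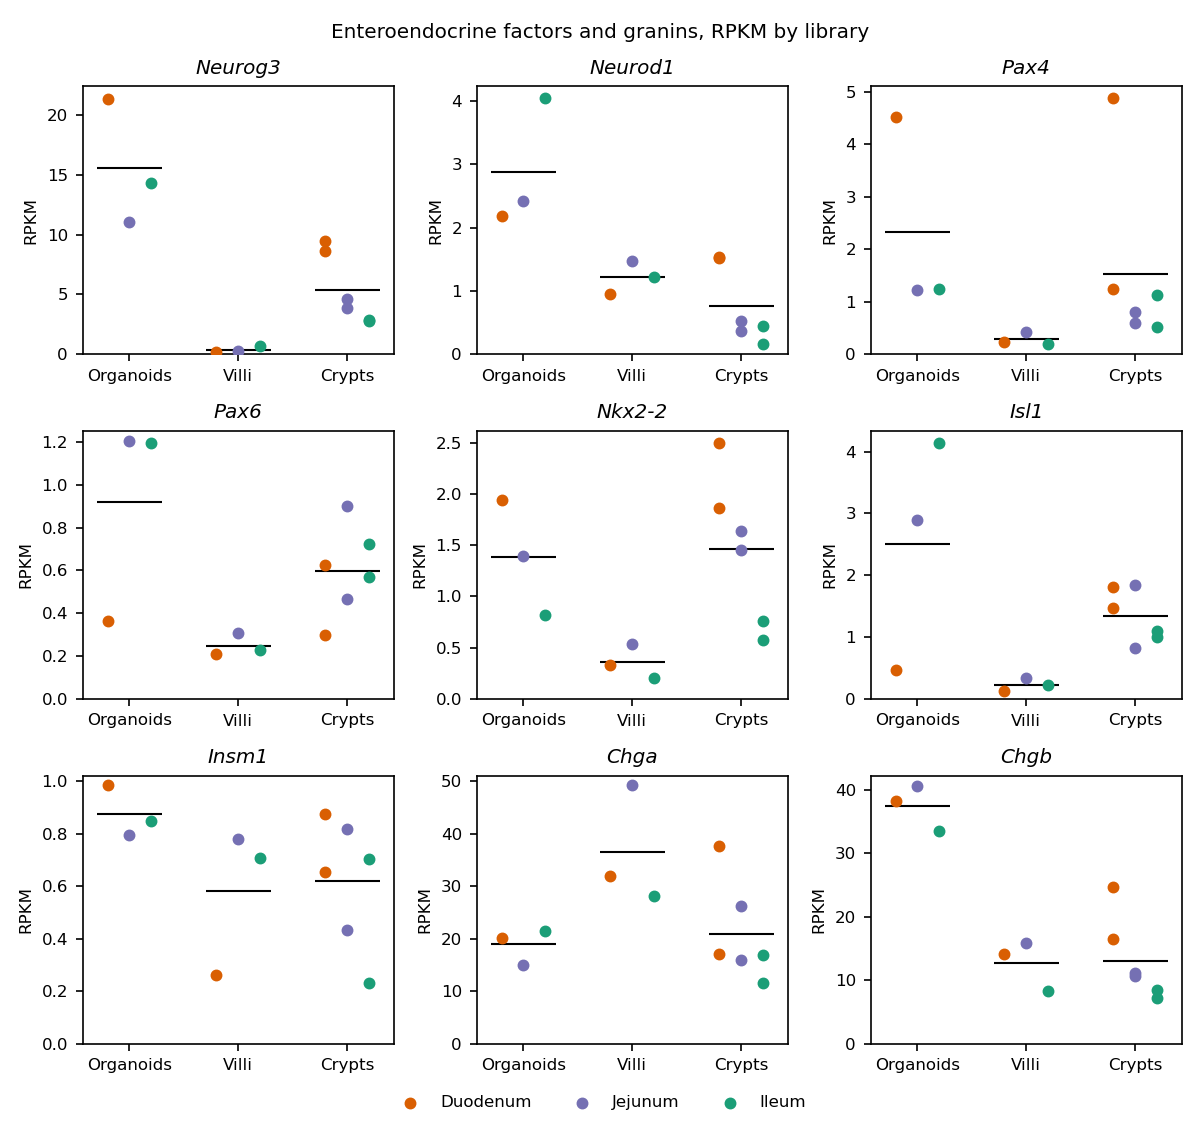
RPKM of each gene in the 12 libraries (y axis, linear and starting at 0), with organoids, villi and crypts along the x axis, 1 point per library coloured by origin and a bar at the tissue mean. Neurog3 lies highest in organoids (11.1 to 21.4 RPKM) and lowest in villi (0.198 to 0.643 RPKM), whereas Chga is lowest on average in organoids and highest in villi.

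Villi were compared with crypts to ask how the program differs between the differentiated and the proliferative compartment. Neurog3, Nkx2-2, Isl1 and Pax4 were lower in villi, Chga was higher, and Neurod1, Pax6, Insm1 and Chgb did not pass the test. Thus 4 of 7 factors fell and 1 of 2 granins rose, where 53.4% of all 11690 genes tested passed in either direction (20.5% higher and 32.8% lower). Isl1 and Pax4 passed the filter on low values through organoids and crypts alone, so that filter is not neutral to the direction of their calls. Neurog3 and Nkx2-2 reached it in 1 villus library each, fewer than the 3 required, so this limit holds for their calls too. The median log2 difference was -0.35 for the 9 genes and -0.20 for all genes. Differences were tested with limma on log2(RPKM + 1) over all 12 libraries, with tissue and origin as additive terms, at an adjusted p of 0.05 (Benjamini-Hochberg over all genes tested). The added 1 makes these log2 differences smaller than the ratio of the means for low genes. In bulk RNA, fewer endocrine cells and less RNA per endocrine cell cannot be told apart.

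Neurog3, the initiating factor, showed the largest difference of the 9 genes. It had 0.198 RPKM in villi of the duodenum, 0.304 in villi of the jejunum and 0.643 in villi of the ileum (4, 6 and 12 reads). Crypts had 8.63 and 9.51 RPKM in the duodenum, 4.62 and 3.86 in the jejunum and 2.90 and 2.78 in the ileum (40 to 138 reads). Every villus library lay below every crypt library, and the ratio of the tissue means was 14.1-fold. The log2 difference was -2.10 (SE 0.29, adjusted p = 7.86e-05, limma). The ratio was 45.7-fold in the duodenum, 13.9-fold in the jejunum and 4.42-fold in the ileum, each resting on 1 villus library. The 95% Poisson intervals of the villus values, which cover counting error only, overlapped between ileum (0.332 to 1.12 RPKM) and duodenum (0.0541 to 0.508 RPKM). Villi of these origins were not tested against each other. The test of whether the ileum-duodenum difference was unlike in villi and crypts did not pass (adjusted p = 0.883, limma).

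Nkx2-2, a homeobox factor of hormone cell fate, had 0.335, 0.534 and 0.201 RPKM in villi of duodenum, jejunum and ileum, against 0.570 to 2.50 RPKM in crypts (median 1.54). No villus library reached a crypt library, and the log2 difference was -0.82 (SE 0.17, adjusted p = 0.00128, limma). Its shorter annotated transcript, not tested here, had 0.169, 0.288 and 0 RPKM in villi of duodenum, jejunum and ileum. Crypts had 0.0798 to 0.841 RPKM of that shorter transcript, so villus and crypt libraries overlapped for it. Isl1, a LIM-homeobox factor, had 0.121, 0.340 and 0.229 RPKM in villi, against 0.817 to 1.84 RPKM in crypts (median 1.29). These libraries did not overlap either, with a log2 difference of -0.91 (SE 0.30, adjusted p = 0.0219, limma). Pax4, a paired-box factor, had 0.238, 0.425 and 0.192 RPKM in villi, against 0.522 to 4.87 RPKM in crypts (median 0.969). Its highest crypt value came from duodenum library 1, and its log2 difference was -0.80 (SE 0.30, adjusted p = 0.0387, limma). These 4 factors were the ones whose villus libraries all lay below all crypt libraries, where 31.9% of all genes did. For Isl1 and Pax4 this is limited by the filter on low values, which no villus library of theirs reached. Neurog3 and Nkx2-2 share this limit, with 1 villus library each that reached it.

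The other 3 factors did not pass. Pax6, which drives several hormone genes, had 0.210 to 0.306 RPKM in villi and 0.298 to 0.899 RPKM in crypts (log2 difference -0.35, adjusted p = 0.0678, limma). Its villus value was below both crypt libraries at each of the 3 origins, and the share of all genes doing so is not given here. In the duodenum this rests on 7 villus reads and 4 reads in crypt library 1. Their 95% Poisson intervals overlapped (0.0843 to 0.432 and 0.0811 to 0.762 RPKM). No villus library of Pax6 reached the filter on low values. Pax6 passed the test without crypt jejunum 2 (0.0419) or organoid duodenum (0.0443), with a pseudocount of 0.1 (0.0399) and under scaling to the reads in annotated genes (0.0324, limma). Neurod1 had 0.949, 1.47 and 1.22 RPKM in villi, against 1.52 and 1.53 RPKM in crypts of the duodenum, 0.368 and 0.520 in the jejunum and 0.448 and 0.156 in the ileum. The villus library was therefore below the crypt libraries in the duodenum and above them in jejunum and ileum (log2 difference 0.39, 95% interval -0.16 to 0.95, adjusted p = 0.209, limma). Insm1 had 0.263 to 0.779 RPKM in villi and 0.231 to 0.875 RPKM in crypts, and the libraries overlapped (log2 difference -0.03, 95% interval -0.40 to 0.33).

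Chga had 31.9, 49.2 and 28.1 RPKM in villi of duodenum, jejunum and ileum (641 to 1185 reads). Crypts had 37.7 and 17.1 RPKM in the duodenum, 15.9 and 26.2 in the jejunum and 11.5 and 16.9 in the ileum (194 to 457 reads). The villus library was above both crypt libraries in jejunum and ileum but between them in the duodenum, and the means differed by 1.74-fold (log2 difference 0.83, SE 0.32, adjusted p = 0.0435, limma). Chgb, the other granin, had 8.30 to 15.9 RPKM in villi and 7.19 to 24.7 RPKM in crypts, with a log2 difference of 0.03 (95% interval -0.53 to 0.60). Villi also held more RNA of other cells. The 8 lymphocyte markers summed to 45.3 to 184 RPKM in villi and 0.708 to 3.32 RPKM in crypts, and the 6 smooth muscle markers to 28.8 to 90.6 RPKM in villi and 1.15 to 9.46 RPKM in crypts. The 11 enteric neuron and glia markers, whose cells can also express granins, Isl1 and Insm1, summed to 1.50 to 3.08 RPKM in villi and 0.772 to 2.20 RPKM in crypts. Their part in the differences was not tested.

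The calls of Chga, Pax4 and Isl1 depended on the setting, and none of the 3 passed without the filter on low values (adjusted p of 0.0539 to 0.0837). Scaling to the reads in annotated genes took Chga to an adjusted p of 0.238 (log2 difference 0.47), and it missed the threshold without crypt duodenum 2, either ileum crypt library, crypt jejunum 1, organoid duodenum or any 1 of the 3 villus libraries (0.0502 to 0.255, the highest without villi of the jejunum). Pax4 missed it under TMM scaling (0.0883), with the crypt libraries numbered 2 alone (0.078) and without crypt jejunum 1, crypt ileum 2, organoid jejunum, organoid ileum, villi of the duodenum (0.344, log2 difference -0.39) or villi of the ileum, and Isl1 without any 1 of the 3 villus libraries (0.0678 to 0.0917) or with the crypt libraries numbered 1 alone (0.0506, limma throughout).

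Organoids were compared with crypts to ask how cultured epithelium differs from the tissue it was grown from. Chgb, Neurog3 and Neurod1 were higher in organoids, and none of the 9 genes fell. Thus 2 of 7 factors and 1 of 2 granins rose, where 47.7% of all genes passed in either direction and 23.4% were higher. The median log2 difference was 0.42 for the 9 genes and 0.00 for all genes. This comparison uses the same crypt libraries as the one above, and culture cannot be told apart from any other feature of the organoid preparation.

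Chgb had 38.3, 40.6 and 33.5 RPKM in organoids of duodenum, jejunum and ileum (1133 to 2063 reads). Crypts had 24.7 and 16.5 RPKM in the duodenum, 11.1 and 10.7 in the jejunum and 8.43 and 7.19 in the ileum (202 to 424 reads). Every organoid library lay above every crypt library, and the log2 difference was 1.56 (SE 0.26, adjusted p = 0.00044, limma). The organoid level was 1.86-fold the crypt mean in the duodenum, 3.73-fold in the jejunum and 4.29-fold in the ileum. Chga did not pass, with 20.2, 15.1 and 21.5 RPKM in organoids against 11.5 to 37.7 RPKM in crypts (log2 difference -0.05, 95% interval -0.75 to 0.65, adjusted p = 0.909, limma).

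Neurog3 had 21.4, 11.1 and 14.4 RPKM in organoids of duodenum, jejunum and ileum (305 to 357 reads), against the 2.78 to 9.51 RPKM in crypts given above. The libraries did not overlap, and the log2 difference was 1.45 (SE 0.29, adjusted p = 0.00135, limma). The organoid level was 2.36-fold the crypt mean in the duodenum, 2.61-fold in the jejunum and 5.06-fold in the ileum. Neurod1, a target of Neurog3, had 2.18, 2.42 and 4.04 RPKM in organoids (59, 112 and 139 reads), against 0.156 to 1.53 RPKM in crypts (4 to 36 reads). Again the libraries were apart, with a log2 difference of 1.18 (SE 0.26, adjusted p = 0.00238, limma) and ratios of 1.43-fold, 5.44-fold and 13.4-fold in duodenum, jejunum and ileum. Neurog3, Neurod1 and Chgb were the 3 genes whose organoid libraries all lay above all crypt libraries, where 16.4% of all genes did.

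The remaining 5 factors did not pass in organoids against crypts. Nkx2-2 had 1.94, 1.39 and 0.815 RPKM in organoids, close to the crypt value at each origin (log2 difference -0.02, 95% interval -0.38 to 0.33). A shorter annotated transcript of Nkx2-2, which overlaps the one used, had 2.11, 0.556 and 0.482 RPKM in organoids and 0.0798 to 0.841 RPKM in crypts. Isl1 had 0.475, 2.90 and 4.14 RPKM in organoids, below both crypt libraries in the duodenum (1.80 and 1.47) and above them in jejunum (0.817 and 1.84) and in the ileum, where the higher crypt library had 1.11 RPKM. Its log2 difference was 0.42 (adjusted p = 0.265), and 0.997 without the organoid duodenum library (adjusted p = 0.00636, limma). Pax4 was high in the organoid duodenum library alone, with 4.52 RPKM against 1.21 and 1.24 RPKM in the others, as it was in crypt duodenum 1 (4.87 RPKM), and without that crypt library its adjusted p was 0.0354 (log2 difference 0.65, limma). Pax6 had 0.362, 1.20 and 1.20 RPKM in organoids and 0.298 to 0.899 RPKM in crypts. Insm1 had 0.984, 0.795 and 0.848 RPKM in organoids and 0.231 to 0.875 RPKM in crypts.

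The 11 pancreas markers, included because the same factors act in the endocrine pancreas, summed to 35.4 to 56.5 RPKM in organoids, 7.52 to 11.7 RPKM in villi and 5.58 to 11.6 RPKM in crypts. Ins2, an insulin gene, was at 0 in all 12 libraries, and Ins1 and Ppy were at 0 in organoids and crypts. Of the acinar genes, Ela1 (Cela1) at a mean of 27.5 RPKM and Ctrb1 at 16.0 RPKM made up nearly all of the organoid sum, against 6.95 and 0.628 RPKM in crypts. The other acinar genes were not high in organoids, where Cpa1, Cpb1, Prss2 and Amy2-2 were at 0 in the 3 libraries, Pnlip reached at most 0.124 RPKM and Cel at most 0.0356 RPKM. The neuron and glia markers summed to 1.40 to 2.61 RPKM in organoids, with Prph at 0, and the lymphocyte markers to at most 0.212 RPKM. Their part in the organoid levels was not tested.

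**Figure D2:**
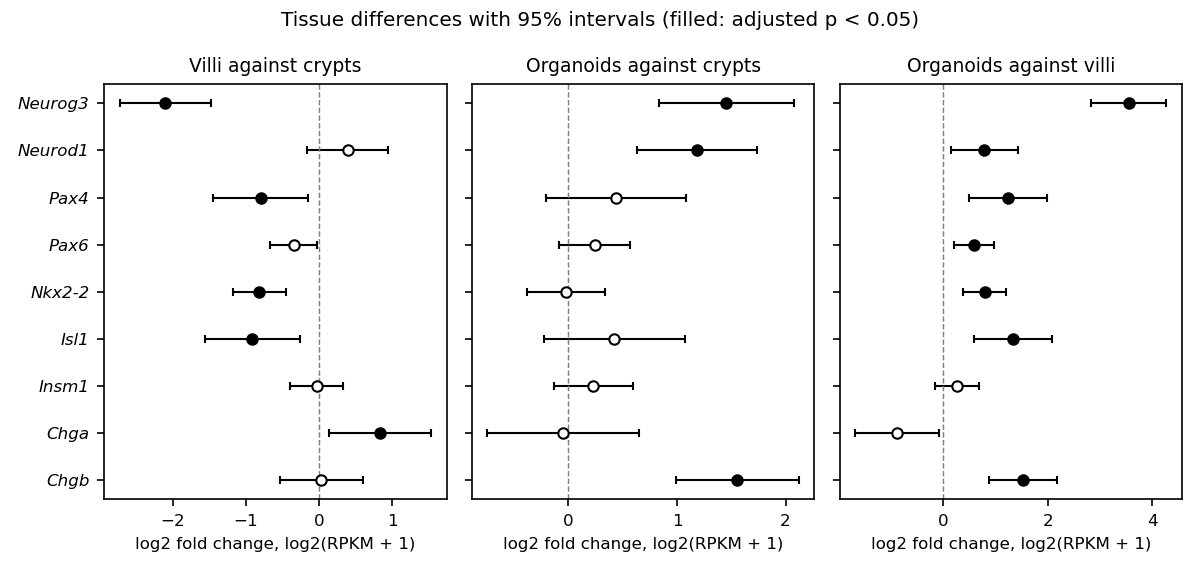
Difference on the log2(RPKM + 1) scale (x axis) for each gene (y axis) in villi against crypts, organoids against crypts and organoids against villi, as points with 95% intervals from limma, filled where the adjusted p is below 0.05. Neurog3 is lower in villi and higher in organoids (-2.10 and 1.45 against crypts), Chgb is higher in organoids alone, and Chga is the only gene below 0 in organoids against villi with an interval that leaves out 0.

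Organoids against villi gave the widest split, in libraries already used above. 6 of 7 factors and Chgb were higher in organoids, where 62% of all genes passed in either direction and 36.2% were higher. Of these factors, Pax4, Pax6 and Isl1 passed the filter on low values through organoids and crypts alone. Neurog3 and Nkx2-2 reached it in 1 villus library each, fewer than the 3 required. That filter is not neutral to the direction of the calls of these 5 factors. The median log2 difference was 0.79 for the 9 genes and 0.22 for all genes. Neurog3 had a log2 difference of 3.55 (SE 0.33, adjusted p = 4.01e-06, limma), a 40.9-fold ratio of means. Next came Chgb (1.52, adjusted p = 0.00074), Isl1 (1.33, adjusted p = 0.00478), Pax4 (1.23, adjusted p = 0.00745), Nkx2-2 (0.79, adjusted p = 0.00298) and Pax6 (0.59, adjusted p = 0.0100, limma). Neurod1 rose by 0.79 (adjusted p = 0.0337, limma), although without organoid jejunum, organoid ileum, villi of the duodenum or villi of the ileum it did not pass (0.0616 to 0.216), nor without the filter on low values (0.0673), under TMM scaling (0.0803), with a pseudocount of 0.1 (0.103) or with limma-voom on recovered reads (0.105), so the call held in 13 of 21 settings. Pax4 also missed the threshold without villi of the duodenum (0.066), and Pax6 without organoid ileum (0.057) or villi of the ileum (0.0509, limma).

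Insm1 had 0.795 to 0.984 RPKM in organoids and 0.263 to 0.779 RPKM in villi and did not pass (log2 difference 0.26, adjusted p = 0.262, limma). Chga pointed the other way, with 15.1 to 21.5 RPKM in organoids and 28.1 to 49.2 RPKM in villi (log2 difference -0.88, SE 0.37, adjusted p = 0.0538, limma). It passed in 8 of 21 settings, namely with the crypt libraries numbered 2 alone (0.0130) or numbered 1 alone (0.0379), under TMM scaling (0.0227), with the replicate block (0.0354), and without crypt duodenum 1, crypt duodenum 2, organoid ileum or villi of the duodenum (0.0241 to 0.0489, limma). All 9 genes had organoid and villus libraries that did not overlap, Chga lower and the other 8 higher, where 70.8% of all genes were apart in this comparison.

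Ratios within a library do not depend on its depth and show the same contrast for pairs of genes. The 3 ratios were chosen after the values were seen and carry no test. Chga over Chgb was 0.371 to 0.643 in organoids, 2.27 to 3.38 in villi and 1.04 to 2.46 in crypts, so the granin that was more abundant changed between organoids and fresh tissue. Neurog3 over Neurod1 was 3.55 to 9.80 in organoids, 0.207 to 0.525 in villi and 5.67 to 17.8 in crypts, so Neurod1 exceeded Neurog3 in villi alone. Chga over Neurog3, a granule protein of mature cells over a progenitor factor, was 0.942 to 1.50 in organoids, 43.7 to 162 in villi and 1.80 to 6.80 in crypts. Neurog3 made up 52.8% to 67.2% of the summed RPKM of the 7 factors in organoids, 7.31% to 18.8% in villi and 39.3% to 55.6% in crypts.

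**Figure D3:**
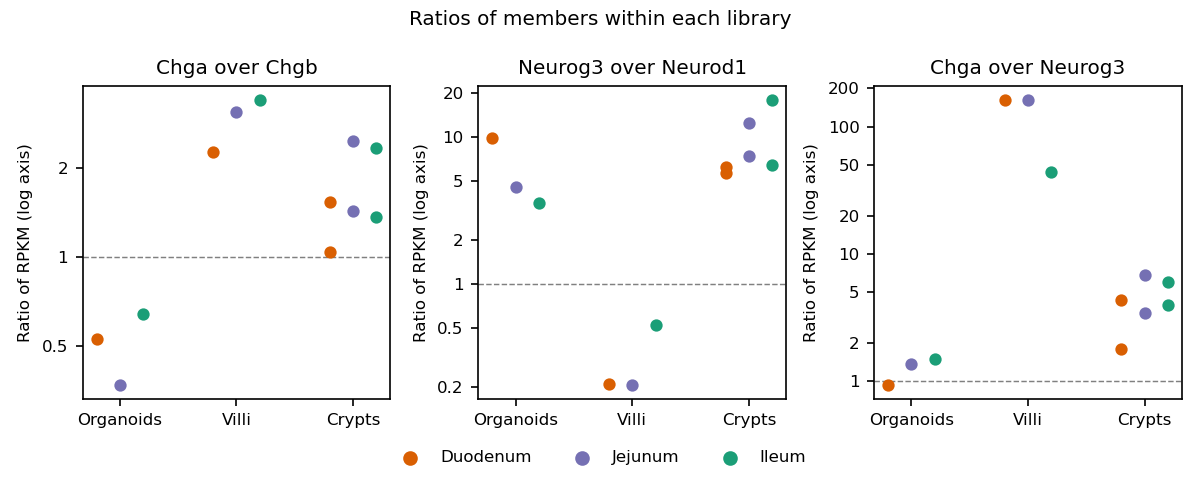
Ratio of the RPKM of a pair of genes within each library (y axis, log scale) in organoids, villi and crypts (x axis), 1 point per library coloured by origin, with a dashed line at a ratio of 1. Chga over Chgb lies below 1 in the 3 organoid libraries and above 1 in the 9 others, and Neurog3 over Neurod1 lies below 1 in the 3 villus libraries.

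Along the length of the intestine, the crypt libraries of ileum and jejunum were compared with those of duodenum. In crypts 7 of 9 genes (Neurog3, Neurod1, Nkx2-2, Isl1, Insm1, Chga and Chgb) had their lowest mean in the ileum and their highest in the duodenum. The share of all genes in this order is not given here, so the count is a description and no result about the set. None of the 9 genes passed the test over all genes. Neurog3 averaged 2.84 ± 0.0872 RPKM in crypts of the ileum, 4.24 ± 0.535 in the jejunum and 9.07 ± 0.621 in the duodenum (SD, n = 2 each). The ileum level was 3.19-fold below the duodenum level, with a log2 difference of -1.39 (SE 0.34, unadjusted p = 0.00453, adjusted p = 0.581, limma). Neurod1 averaged 0.302 ± 0.207 RPKM in the ileum, 0.444 ± 0.108 in the jejunum and 1.53 ± 0.00645 in the duodenum (SD, n = 2 each), a log2 difference of -0.97 between ileum and duodenum (SE 0.22, adjusted p = 0.519, limma). Nkx2-2 averaged 0.667 RPKM in the ileum, 1.54 in the jejunum and 2.18 in the duodenum, and Chgb 7.81, 10.9 and 20.6 RPKM (log2 differences between ileum and duodenum of -0.93 and -1.27). Isl1 averaged 1.05, 1.33 and 1.64 RPKM, Insm1 0.467, 0.626 and 0.764 RPKM and Chga 14.2, 21.1 and 27.4 RPKM in ileum, jejunum and duodenum.

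In that crypt comparison 0 of 9 genes passed, where 4 of 11297 genes did (0.0354%). Unadjusted p-values below 0.05 (limma) numbered 484 among the 11297 genes of ileum against duodenum, a smaller share than 0.05. Neurog3 was among these genes, which is no result about it. With the replicate block, 0 of 9 genes and 37 of all genes passed (0.328%). The 2 ileum libraries lay below both duodenum libraries for 7 of 9 genes (Neurog3, Neurod1, Pax4, Nkx2-2, Isl1, Chga and Chgb), where 12.1% of all genes were lower in this way. The gap was small for Chga, with 16.9 RPKM in the higher ileum library and 17.1 RPKM in the lower duodenum library. Pax6 and Insm1 overlapped. Between jejunum and duodenum crypts the jejunum libraries were lower without overlap for 5 of 9 genes (Neurog3, Neurod1, Pax4, Nkx2-2 and Chgb; 13.1% of all genes), and 0 of 9 genes passed (0% of all genes, with limma and with limma-voom, and 3 genes with the replicate block, none of them among the 9). There 134 of 11297 genes had an unadjusted p below 0.05 (limma), a smaller share than 0.05 of them. Neurog3, Neurod1 and Pax4 were among these, which is no result about them.

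Over all 3 tissues, 0 of 9 genes passed in ileum against duodenum, where 79 of 11690 genes did (0.676%). Nkx2-2 came nearest, with a log2 difference of -0.68 (SE 0.17, adjusted p = 0.095, limma), and passed when the crypt replicate number was included as a block (adjusted p = 0.0498), where 2.59% of all genes did. Its values were 0.815 RPKM in organoids of the ileum and 1.94 in organoids of the duodenum, 0.201 in villi of the ileum and 0.335 in villi of the duodenum, and 0.764 and 0.570 in crypts of the ileum against 2.50 and 1.86 in crypts of the duodenum. Ileum values were thus lower in all 3 tissues, but in villi they rest on 5 reads in the ileum and 9 in the duodenum. The 95% Poisson intervals of these villus values overlapped (0.0654 to 0.470 and 0.153 to 0.637 RPKM). Chgb followed (log2 difference -0.86, adjusted p = 0.219), then Pax4 (-0.84, adjusted p = 0.35) and Neurog3 (-0.72, adjusted p = 0.454, limma). In jejunum against duodenum 0 of 9 genes and 0 of all genes passed with limma (0%). Limma-voom on recovered reads passed 4 genes and limma with the replicate block 13, none of them among the 9. An unadjusted p below 0.05 (limma) was found for 338 of 11690 genes, a smaller share than 0.05 of them. Pax4 and Neurog3 were among these, which is no result about them.

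For Neurod1, Isl1 and Chga the ileum and duodenum values stood in opposite order in organoids and crypts, but no test of such a difference passed. Neurod1 had 4.04 RPKM in organoids of the ileum and 2.18 in organoids of the duodenum, and 1.22 RPKM in villi of the ileum and 0.949 in villi of the duodenum, whereas crypts of the ileum lay below crypts of the duodenum. Isl1 had 4.14 RPKM in organoids of the ileum and 0.475 in organoids of the duodenum, while crypts of the ileum were the lower ones. Chga differed little in organoids (21.5 RPKM in ileum and 20.2 in duodenum), against crypt means of 14.2 and 27.4 RPKM. The test of this difference in slope gave 2.16 for Isl1 (SE 0.45, unadjusted p = 0.00375, adjusted p = 0.812) and 1.63 for Neurod1 (SE 0.35, unadjusted p = 0.00425, adjusted p = 0.85) in organoids against crypts, and 1.84 for Neurog3 (SE 0.50, unadjusted p = 0.0118, adjusted p = 0.883, limma) in villi against crypts. None of the 9 genes passed in either test, and none of 12597 genes did (0%, with limma and with limma-voom on recovered reads). An unadjusted p below 0.05 (limma) was found for 330 of them in organoids and 460 in villi, each a smaller share than 0.05. Without the filter on low values 362 of 16112 genes passed in organoids and 497 in villi, none of them among the 9. Organoid and villus groups have 1 library per origin, which the test assumes to vary like crypt libraries.

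**Figure D4:**
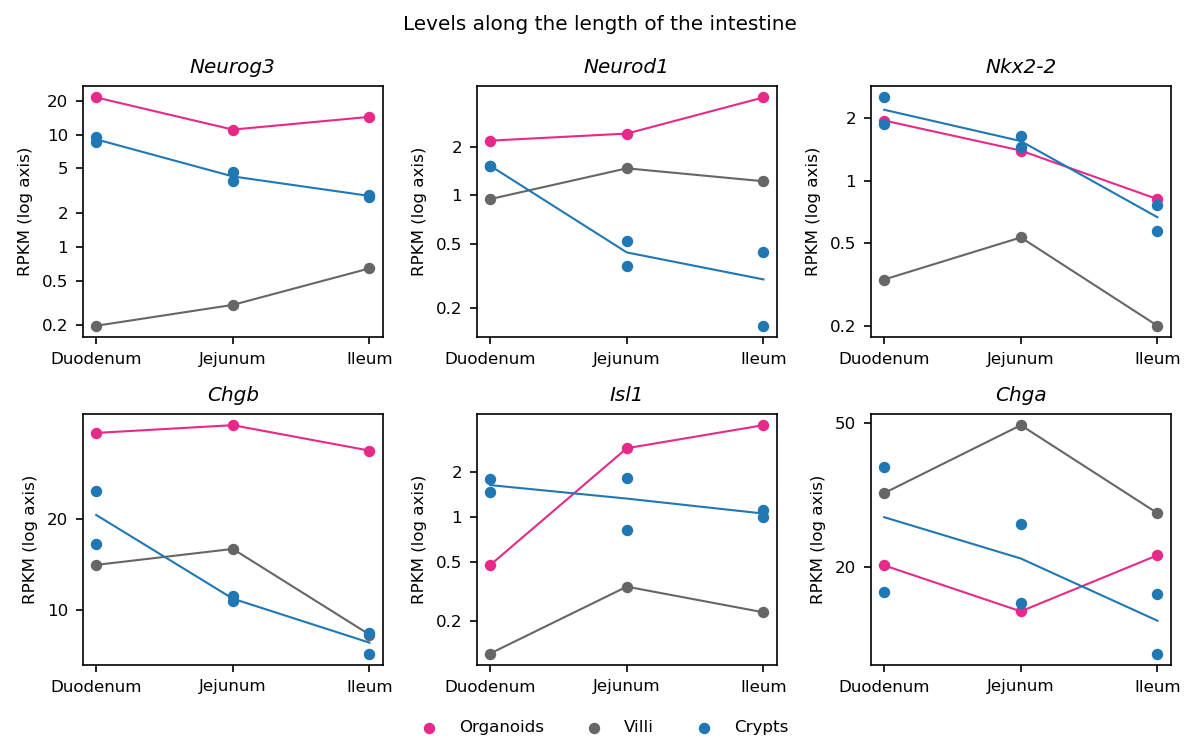
RPKM (y axis, log scale) of 6 of the genes in duodenum, jejunum and ileum (x axis), 1 point per library, with lines through the tissue means for organoids, villi and crypts. Mean crypt levels of the 6 genes shown are lowest in the ileum and highest in the duodenum. Organoid levels of Neurod1, Isl1 and, by a small margin, Chga are highest in the ileum.

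The rest of the endocrine program was taken from lists of other genes. Of 15 other endocrine and secretory factors tested, 0 were higher and 6 lower in villi than in crypts, with Sox4, a progenitor factor, at -4.23 (SE 0.45, adjusted p = 1.30e-05), Runx1t1 at -0.43 (adjusted p = 0.00578) and Foxa1 at -0.79 (adjusted p = 0.0120, limma). With 32.8% of all genes lower and 53.4% passing in either direction, these 6 of 15 do not set the list apart. In organoids against crypts 3 were higher and 2 lower, where 47.7% of all genes passed. Rfxdc1 (Rfx6), a winged-helix factor that acts downstream of Neurog3, had a log2 difference of 1.46 (SE 0.17, adjusted p = 3.40e-05), and St18 and Lmx1a rose by 0.57 and 0.46, while Sox4 was at -3.30 (limma). In organoids against villi, where 62% of all genes passed, 8 were higher and 1 lower, among them Rfxdc1 (1.72, adjusted p = 1.13e-05, limma).

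Most hormone genes that passed were higher in villi or in organoids than in crypts. Of 13 hormone and amine synthesis genes tested, 7 were higher and 1 lower in villi than in crypts (20.5% and 32.8% of all genes), with a list median of 0.92 against -0.20 for all genes. Nts (neurotensin) was higher by 5.10 (SE 0.52, adjusted p = 9.02e-06), Sct (secretin) by 2.08 and Ddc, an enzyme of serotonin synthesis, by 1.91, whereas Gcg (proglucagon) was at -1.49 (adjusted p = 0.0288, limma). In organoids against crypts 8 were higher (23.4% of all genes) and 0 lower, with a list median of 2.01 against 0.00. Cck (cholecystokinin) was higher by 4.52 (SE 0.52, adjusted p = 3.83e-05), Tac1 by 3.89 and Tph1, the first enzyme of serotonin synthesis, by 2.65 (limma). In organoids against villi 6 were higher, led by Gcg (5.49, SE 0.61, adjusted p = 1.02e-05), and 4 lower, among them Sct (-2.72) and Pyy (peptide YY, -2.22, limma). Of all genes 36.2% were higher and 25.8% lower in organoids against villi. Between ileum and duodenum over all tissues, where none of the 9 genes passed, Pyy (3.66) and Nts (2.90) were higher in ileum, and Ghrl (ghrelin, -2.34) and Gip (-2.53) were lower (adjusted p of 0.0035 to 0.0223, limma).

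Of 24 prohormone processing and granule genes tested, 7 were higher and 3 lower in villi than in crypts, and 11 higher and 2 lower in organoids than in crypts. Of all genes 53.4% passed in villi against crypts (20.5% higher) and 47.7% in organoids against crypts (23.4% higher), so the 10 of 24 that passed in villi are a smaller share than that of all genes. Scg5, the chaperone of prohormone convertase PC2, rose in both (0.76 in villi and 1.89 in organoids, adjusted p = 0.00119 and 7.15e-06, limma). Pcsk1n, an inhibitor of prohormone convertase PC1, was higher in villi by 1.39, and Pcsk1, that convertase, was higher in organoids by 1.61. Rab3d, a vesicle GTPase, was lower in both (-1.43 and -0.88). In organoids against villi 9 of these genes were higher, led by Scgn (secretagogin, 2.73, adjusted p = 6.82e-05), and 4 lower, led by Pcsk1n (-1.68, limma). Of all genes 36.2% were higher and 25.8% lower there. Of 10 Notch and progenitor genes tested, 3 were higher and 4 lower in villi than in crypts, where 53.4% of all genes passed, with Hes1, a repressor switched on by Notch, at -2.68 (SE 0.26, adjusted p = 7.49e-06) and the ligand Dll1 at 0.83 (adjusted p = 0.00695, limma). In organoids against crypts 0 were higher and 4 lower, with Notch1 at -1.39 (adjusted p = 0.000974, limma), where 47.7% of all genes passed. In organoids against villi 2 were higher and 3 lower, where 62% of all genes passed.

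**Figure D5:**
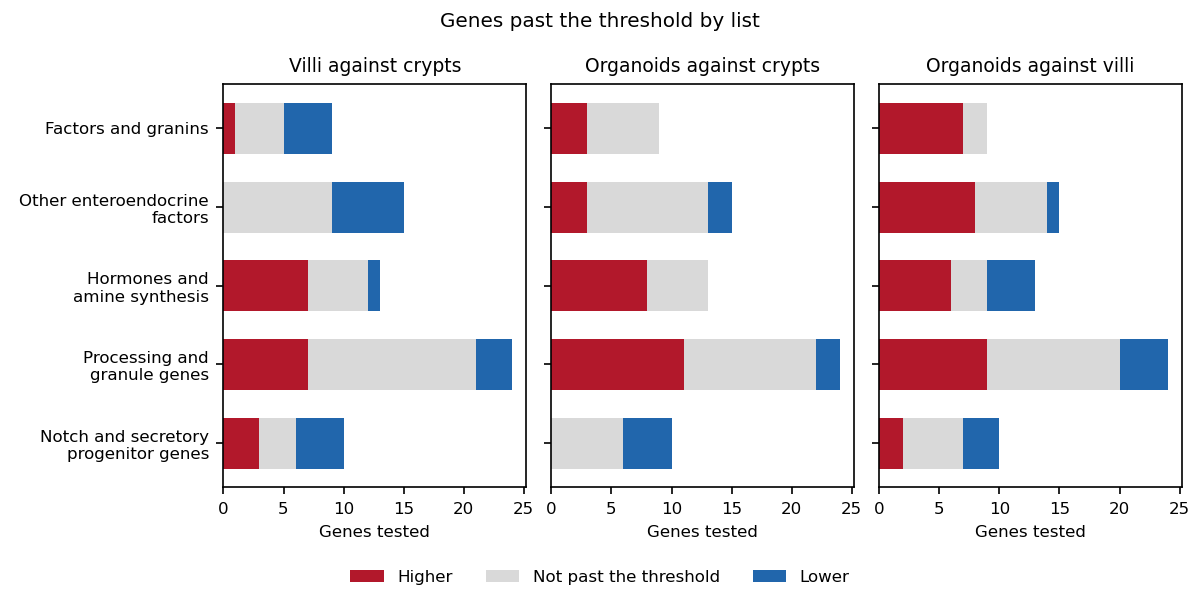
Number of genes tested (x axis) in each list (y axis) that were higher (red), lower (blue) or not past the adjusted p of 0.05 (grey) in villi against crypts, organoids against crypts and organoids against villi. Among hormone genes 7 of 13 are higher in villi than in crypts, where 20.5% of all genes are. Lower in villi are 4 of the 9 factors and granins and 6 of 15 other endocrine factors, where 32.8% of all genes are.

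Across the 12 libraries, the genes most alike Chga on log2(RPKM + 1), among 10027 genes, were Rgs10 (Pearson r 0.867, Spearman rho 0.832), 4933417A18Rik, Gpx3, C1qb and Npl (r of 0.808 to 0.841 for these 4). All 5 had their highest tissue mean in villi. The genes most alike Neurog3 were 1700021C14Rik (r 0.978, rho 0.965), Rfc4, Bcs1l, Thyn1 and Ifitm3 (r of 0.973 to 0.974), all with their highest mean in organoids and their lowest in villi. Among the 9 genes themselves, the closest pair was Neurod1 and Chgb (r 0.866, rho 0.881). Neurog3 and Chga had r -0.45 (rho -0.38), and Chga and Chgb r 0.08 (rho 0.06). These points share tissue, origin and depth, so the correlations are descriptions.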

How the data were processed

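Poly(A) RNA was read as 50-nt reads on a SOLiD 4 sequencer, per the labels' protocols. The submitters' processing notes name BWA and the mouse build mm9. The sources used here give no versions, gene models, counting rule or use of strand, so reads of overlapping genes cannot be told apart. The deposited unit is RPKM with 1 value per transcript, per the file headers (21247 transcripts, 19012 symbols). For the 1520 symbols with several transcripts, that with the longest exons was taken. Nkx2-2 is the member with a second, shorter transcript.

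The 9 genes and the lists were chosen with earlier results of these data known. At least 99.9535% of values in each library were whole reads within 0.02 read, so read numbers were recovered. Tests were two-sided, used limma 3.58.1 (R 4.3.3) with its trend option on log2(RPKM + 1), and were adjusted by Benjamini-Hochberg across the genes of a comparison. A gene entered with 15 reads in total and 10 reads, rescaled to the median depth, in 3 libraries (tissues), 2 (crypts) or 1 (differences in slope). The additive model left 7 residual degrees of freedom, and the crypt model and the model of 9 means left 3 each. On recovered reads, limma-voom passed 6382 genes in villi against crypts, where limma passed 6237. The scripts were tested on simulated data.

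Equal replicate numbers of the crypts deviated together (correlations of 0.419, 0.506 and 0.789 between origins over 11297 genes), so the numbers may pair the libraries. The reported fits leave this pairing out, and a fit with the replicate block was made as an alternative. Alternatives were a pseudocount of 0.1, no filter, TMM scaling, the transcript with the highest mean value, limma-voom, the replicate block and leaving out each library. Scaling to the reads in annotated genes and the crypt libraries of 1 number alone were added after seeing the data. Named genes are the 9 members, up to 3 passing genes per direction and list with the smallest p (or 2 abundant ones), the abundant markers, and the 5 genes most alike Chga and Neurog3. Genes named beyond these, such as Ins2, were chosen after their values were seen. Of 168 list entries 163 were matched.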

Additional observations from a re-analysis of the deposited data

How the results depend on the processing

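A chosen set of 43 differences was recomputed in 815 combinations with the other settings. It held all 9 genes in the 3 tissue comparisons but only some of their origin and slope differences. Of the 815 combinations, 747 kept direction and side of the threshold, 35 no longer passed, 15 newly passed and 18 changed sign, none of the 18 with a call in either setting. Passing in all 21 settings were Neurog3 in the 3 tissue comparisons, Nkx2-2 in villi against crypts and organoids against villi, Neurod1 and Chgb in organoids against crypts, and Isl1 and Chgb in organoids against villi. Every setting used the longer transcript of Nkx2-2. Genes passing in villi against crypts numbered 5, with 2 without the filter on low values and 2 to 6 when leaving out each library. In ileum against duodenum over all tissues 0 passed, and 1 with the replicate block. The block changed 1 other call, that of Chga in organoids against villi. Sign changes in villi against crypts were Insm1 under TMM scaling (0.068), with crypts numbered 1 alone (0.13) and without a library (-0.15 to 0.18), and Chgb under scaling to reads in genes (-0.31), with crypts numbered 1 alone (-0.10) and without a library (-0.16 to 0.18). In organoids against crypts they were Nkx2-2 with crypts numbered 2 alone (0.035) and without a library (-0.076 to 0.044), and Chga without a library (-0.35 to 0.20). TMM moved the median of all genes in villi against crypts from -0.20 to -0.03, with 3390 genes higher and 3265 lower where the reported fit had 2402 and 3835, and scaling to reads in genes gave 1804 and 5029 (median -0.43). In organoids against crypts that scaling moved the median from 0.00 to -0.17, with 2098 genes higher and 3588 lower where the reported fit had 2741 and 2831. Genes passing in ileum against duodenum over all tissues numbered 79, against 303 with the block, 122 with limma-voom, 153 with crypts numbered 2 alone and 17 without the filter. In crypts of ileum against duodenum they numbered 4, against 37 with the block, 1 with limma-voom, 1 with a pseudocount of 0.1 and 0 without the filter. In jejunum against duodenum they numbered 0 over all tissues, against 13 with the block, 11 with crypts numbered 2 alone, 7 without crypt duodenum 1 and 4 with limma-voom, and 0 in crypts, against 3 with the block. In the differences in slope they numbered 0, against 362 in organoids and 497 in villi without the filter. The cause was not tested. Few reads limit Pax4, Pax6, Isl1, Neurog3 and Nkx2-2 in villi.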
